A study of Sus scrofa with 14 samples.

Results

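The genes described here code for proteins of the lysosome and of autophagy. They were taken from a written list of 37 symbols, and 33 of these named a row of the deposited count table, which holds 25880 gene rows. By role they were 8 proteases (of 9 listed), 8 glycosidases and sulfatases (of 11), 3 lipid handling proteins, 5 membrane proteins and transporters, 3 subunits of the proton pump, 1 transcription factor and 5 autophagy proteins. All 33 passed the filter on low counts (at least 10 reads summed over the libraries). The other 4 symbols, CTSL, HEXA, IDS and MAN2B1, belonged to rows that only the reference's identifier table names, so they are given separately and enter none of the counts of the 33 genes. The list of 37 symbols was written with earlier results of these data known. Shares of its genes that are set against all genes below are therefore not independent of these data.

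The lysosome is the acidic compartment in which cells break down proteins, glycans and lipids delivered by endocytosis or autophagy. A proton pump keeps its interior acidic, glycosylated membrane proteins line its wall, and transporters return the products to the cytosol. In autophagy a double membrane that carries lipidated proteins of the LC3 and GABARAP families encloses cytosolic cargo, receptors such as SQSTM1 (p62) tether that cargo, and the vesicle then fuses with a lysosome. TFEB is a transcription factor that binds E-box elements in the promoters of many of these genes. Chondrocytes and meniscus cells also use lysosomal enzymes to turn over proteoglycans of the matrix around them.

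The libraries hold polyadenylated RNA from knee tissue of skeletally mature female pigs obtained from an abattoir. They fall into 5 groups, namely outer zone meniscus cells at passage 3 (outer zone P3 cells, n = 2), inner zone meniscus cells at passage 3 (inner zone P3 cells, n = 3), outer zone tissue (n = 3) and inner zone tissue (n = 3) of the medial meniscus, and full thickness articular cartilage of the femur (n = 3). The explants of all 3 tissues had 3 days of culture in serum-containing medium, and the cells were released with pronase and collagenase and grown as a monolayer on plastic. The comparisons ask how the zones of the meniscus differ from cartilage and from each other, and how passaged cells differ from the tissue of their zone. The cells came from other donors than the explants, and cell RNA was purified on a column alone while explants were first pulverized in TRIzol, so passaging, donor and extraction cannot be told apart. The tissue explants came from 3 menisci, with 1 explant per zone from each, so the zones share menisci, but the labels do not say which libraries belong together and the test treats them as separate samples. The p-values therefore measure the spread between these samples only. The meniscus explants were also taken at different positions across the horns and midbody, and the labels do not give the position of any library. All comparisons with cartilage share the same 3 cartilage libraries, and each tissue group serves in several comparisons.

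The promoters are shown first. The genes were listed by role and not by the letters of their promoters. Since TFEB is known to bind E-box elements in many genes of these roles, the shares below are not independent of that choice. They describe the list and are not a result of the expression data. For each gene the 250 bases before and 50 bases after the start of the RefSeq gene model on Sscrofa11.1 were searched on both strands. The 6-letter core CACGTG stood in 9 of 32 promoters (28.1%), against 7.93% of all 19531 promoters of protein-coding genes searched the same way. The longer form TCACGTG, which contains the core, stood in 7 of 32 (21.9%), against 4.17% of all promoters. These 7 genes were CTSA, GUSB, IDUA, LAMP1, LAMP2, MCOLN1 and ATP6V1H. With all libraries 0 of them passed the thresholds for a called change given below. The 11 members that did pass in at least 1 comparison all had a searched promoter, without the longer form. NAGLU had no gene model that matched. The stretches before the gene start that hold the longer form are printed for 4 of these genes and for HEXA, with every match in capitals (the letters CACGTGA are TCACGTG read on the other strand), since they show how close to the start the matches lie.
CTSA, chr17:48082434-48082479, plus strand: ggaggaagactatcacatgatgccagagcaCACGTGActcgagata
IDUA, chr8:334560-334603, plus strand: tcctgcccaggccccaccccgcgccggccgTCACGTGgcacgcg
LAMP1, chr11:78600568-78600605, plus strand: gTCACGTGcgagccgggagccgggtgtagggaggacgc
LAMP1, chr11:78600610-78600706, plus strand: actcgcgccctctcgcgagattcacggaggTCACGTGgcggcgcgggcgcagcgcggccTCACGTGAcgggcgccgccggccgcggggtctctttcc
LAMP2, chrX:98623949-98624015, minus strand: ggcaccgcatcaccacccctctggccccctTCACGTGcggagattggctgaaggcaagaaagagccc
HEXA, chr7:60878409-60878526, plus strand: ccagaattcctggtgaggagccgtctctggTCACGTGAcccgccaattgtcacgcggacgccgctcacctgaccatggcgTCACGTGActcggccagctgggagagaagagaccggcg
The promoter of CTSD, the gene of this set with the most reads in tissue, holds no match in the searched window, and its 250 bases before the start are printed for comparison.
CTSD, chr2:1197643-1197892, minus strand: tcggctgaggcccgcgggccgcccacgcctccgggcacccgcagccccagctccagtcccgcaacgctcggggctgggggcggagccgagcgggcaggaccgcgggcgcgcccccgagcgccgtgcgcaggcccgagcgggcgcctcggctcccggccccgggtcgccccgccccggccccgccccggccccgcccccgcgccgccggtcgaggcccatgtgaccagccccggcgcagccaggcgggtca
A match of letters is a description and not a measured binding site.

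Library totals ran over 24440213 to 43304412 reads on genes. Outer zone tissue 2 stood apart from the other outer zone tissue libraries. Its summed level of 10 endothelial markers was 18.5 CPM (counts per 1e6 reads of the TMM-scaled total) against 622 and 238 CPM in those. The P3 cells, inner zone tissue and cartilage had 5.77 to 21.6 CPM. The paper reports an outer zone sample that clustered with inner zone samples, and says that the overlapping samples lay nearer the horns than the others. The labels do not say which libraries these were, and the part of position was not tested. As a check of the labels, 9 chondrocyte markers summed to 837 to 1535 CPM in P3 cells, 8281 to 21376 CPM in outer zone tissue, 16861 to 51402 CPM in inner zone tissue and 53415 to 120446 CPM in cartilage. Sums of 15 macrophage markers were 18.2 to 20.3 CPM in outer zone P3 cells, 17.7 to 20.6 CPM in inner zone P3 cells, 112 to 183 CPM in outer zone tissue, 85.9 to 135 CPM in inner zone tissue and 60.7 to 78.5 CPM in cartilage. The part of these differences in the results below was not tested, and in such bulk samples fewer cells of a type and less RNA per cell cannot be told apart.

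The 33 genes together took 0.748% and 0.901% of the reads in outer zone P3 cells, 0.631% to 0.671% in inner zone P3 cells, 1.21% to 1.27% in outer zone tissue, 1.04% to 1.35% in inner zone tissue and 0.947% to 1.48% in cartilage. Much of that difference was CTSD alone, which took 0.0833% and 0.117% in outer zone P3 cells and 0.0777% to 0.0948% in inner zone P3 cells, against 0.423% to 0.588% in outer zone tissue and 0.452% to 0.663% in inner zone tissue. Without CTSD the shares were 0.665% and 0.783% in outer zone P3 cells against 0.677% to 0.790% in outer zone tissue, which overlapped, and 0.553% to 0.577% in inner zone P3 cells against 0.570% to 0.691% in inner zone tissue, which overlapped too. Per kilobase of exon CTSD had the highest mean level in every group, from 434 CPM per kb in inner zone P3 cells to 2598 CPM per kb in inner zone tissue. CD63 came next in every group but 1, with 402 to 692 CPM per kb, whereas LIPA had group means of 0.77 to 9.18 CPM per kb and SLC15A3 of 0.88 to 11.5 CPM per kb. The heat map of log2 levels shows CTSD low in cells and LIPA and SLC15A3 high there.

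**Figure D1:**
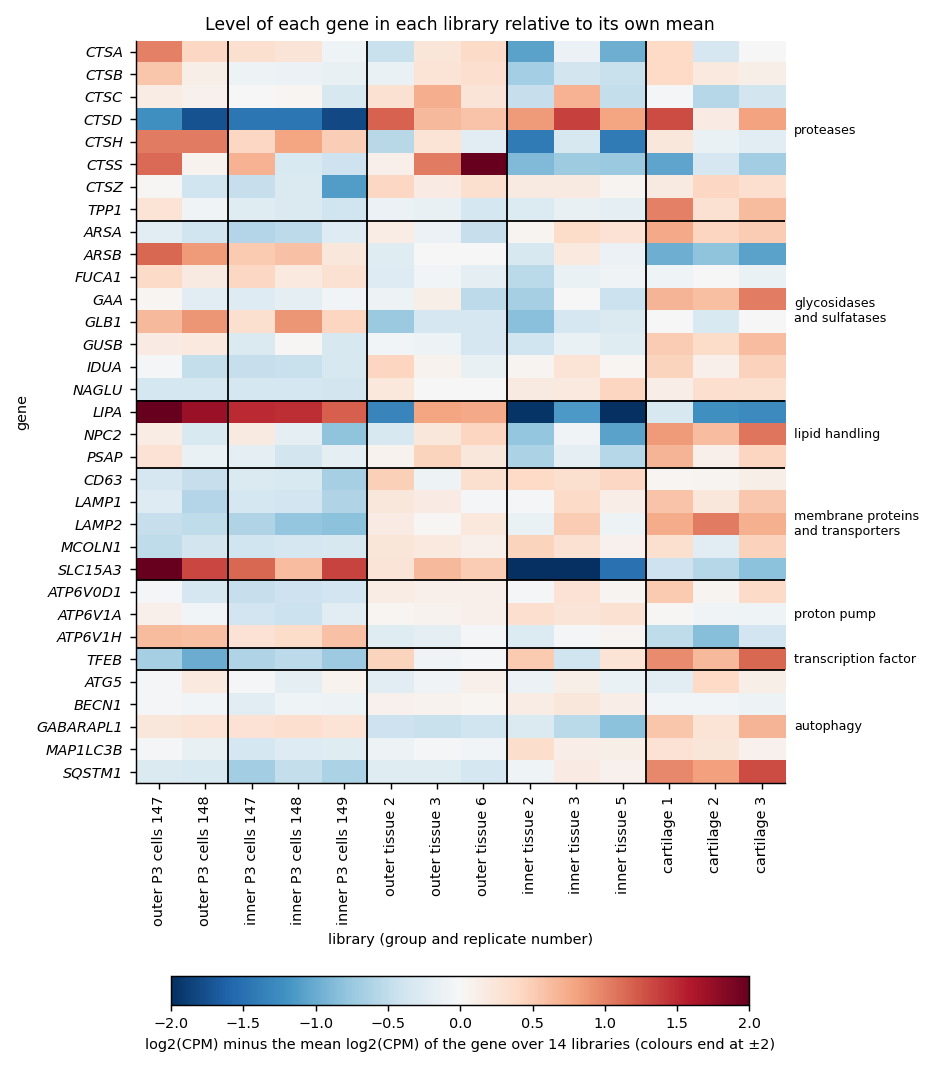
Level of each of the 33 genes (rows, by role) in each of the 14 libraries (columns, by group), as log2(CPM) minus the gene's own mean over the libraries. CTSD is low in all 5 P3 libraries, SLC15A3 and LIPA are high there, and SQSTM1 and TFEB are high in the 3 cartilage libraries.

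Each comparison was tested with edgeR's quasi-likelihood test with Benjamini-Hochberg adjustment over all 15707 genes tested, which is the adjusted p given throughout. A gene was called where the adjusted p was under 0.01 and the log2 fold change exceeded 1 in size. In outer zone P3 cells over outer zone tissue 4 of the 33 genes were called (12.1%, against 16.7% of all genes tested), of which 3 rose (8.36% of all genes did) and 1 fell (8.3%), and the median log2 fold change was -0.05 against -0.01 over all genes. In inner zone P3 cells over inner zone tissue 5 were called (15.2%, against 25.7%), of which 4 rose (13.6% of all genes did) and 1 fell (12.1%), with a median of -0.11 against 0.01. Outer zone tissue over cartilage had 3 called genes (9.09%, against 15.1%), of which 2 rose (8.56% of all genes did) and 1 fell (6.5%), with a median of -0.17 against 0.06. Inner zone tissue over cartilage had 4 (12.1%, against 9.05%), of which 0 rose (4.45% of all genes did) and 4 fell (4.6%), with a median of -0.28 against 0.00. In outer over inner zone tissue 1 gene rose (3.03%, against 0.0318%, or 5 genes in all), with a median of 0.01 against 0.01. The share of called genes was below that of the whole table in 3 comparisons and above it in inner zone tissue over cartilage. In outer over inner zone tissue it rests on 1 gene. These counts are small, and leaving out 1 library gave 2 to 5, 4 to 7, 1 to 4 and 1 to 6 called genes in the first 4 comparisons. The shares are therefore not read as a difference between the set and the whole table.

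By the adjusted p alone, without the fold threshold, the counts were larger. The member with the fewest reads, TFEB, had 4857 over all libraries, while the genes tested needed only 10. The shares below thus compare genes of unlike depth, and the part of depth in them was not tested. In outer zone P3 cells over tissue 6 of 33 genes passed (18.2%, against 25% of all genes), 5 of them higher (12.9% of all genes were) and 1 lower (12.1%). In inner zone P3 cells over tissue 20 passed (60.6%, against 38.5%), 7 of them higher (20.1% of all genes were) and 13 lower (18.5%). In outer zone tissue over cartilage 10 passed (30.3%, against 25.3%), 3 of them higher (13.7% of all genes were) and 7 lower (11.6%). In inner zone tissue over cartilage 11 passed (33.3%, against 16.7%), 1 of them higher (8.45% of all genes was) and 10 lower (8.21%). Between cells and tissue 28 of 33 genes in the inner zone and 27 of 33 in the outer zone differed by less than 1 on the log2 scale. The share of all genes under that limit was not counted, so this is not read as a trait of the set.

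The libraries of the groups lay apart for more genes than were called. In outer zone P3 cells 11 of 33 genes lay above all outer zone tissue libraries (32.1% of all genes did) and 11 below (29.3%), and in inner zone P3 cells 11 lay above all inner zone tissue libraries (33.4%) and 15 below (29.2%). In outer zone tissue 7 lay above all cartilage libraries (23.9% of all genes did) and 11 below (22.3%), and in inner zone tissue 5 lay above (21.3%) and 13 below (20.6%). Outer over inner zone tissue had 4 genes above (8.69% of all genes) and 4 below (8.25%). These shares too compare genes of unlike depth.

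**Figure D2:**
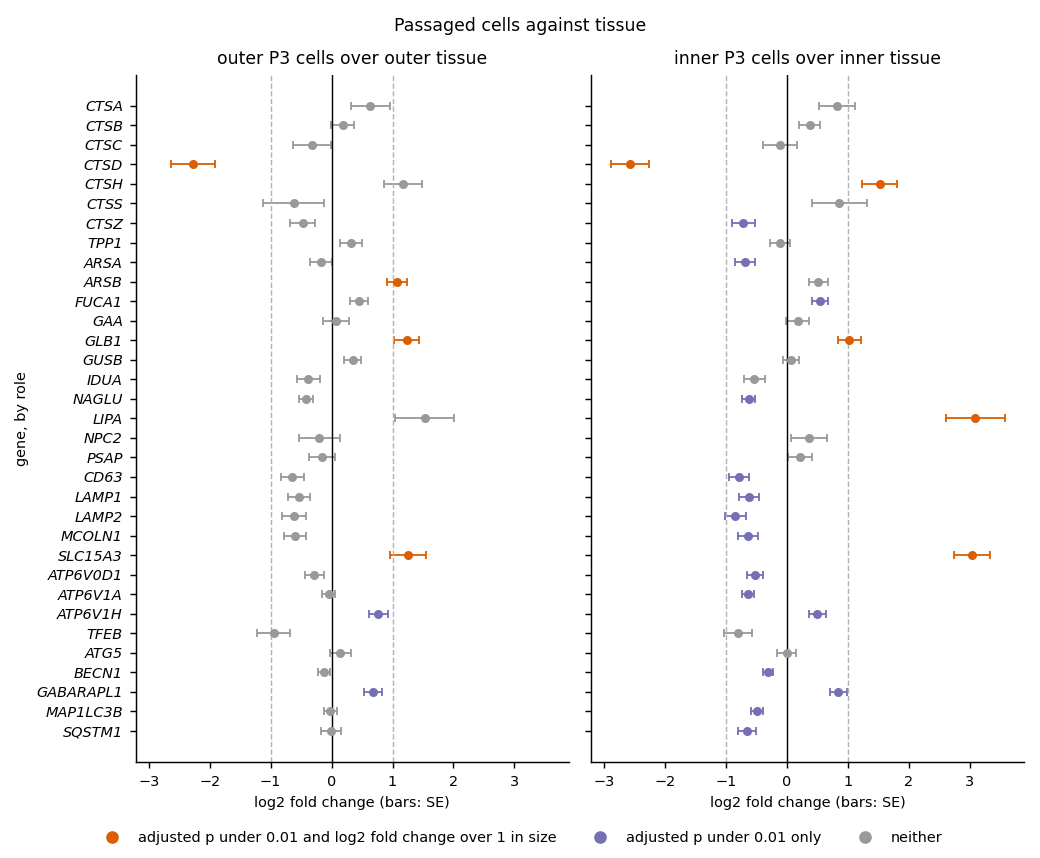
Log2 fold change with its SE (x axis) of each of the 33 genes (rows, by role) in outer zone P3 cells over outer zone tissue (left) and inner zone P3 cells over inner zone tissue (right), with dashed lines at 1 and -1. CTSD lies at -2.28 and -2.58, and the colours mark genes called, genes past the adjusted p alone and genes past neither.

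Among the proteases CTSD changed most. It codes for cathepsin D, the main aspartic protease of lysosomes (chromosome 2, 1188548 to 1197642, minus strand). Its level was 1102 and 772 CPM in outer zone P3 cells, 941, 947 and 734 CPM in inner zone P3 cells, 5823, 4053 and 3802 CPM in outer zone tissue, 4627, 6625 and 4449 CPM in inner zone tissue and 6370.5, 2878 and 4487 CPM in cartilage. Every cell library lay below every tissue library, and the 3 tissues overlapped. CTSD was 4.86-fold lower in outer zone P3 cells than in outer zone tissue (log2 fold change -2.28 ± 0.36 (SE), adjusted p = 0.000388) and 5.99-fold lower in inner zone P3 cells than in inner zone tissue (-2.58 ± 0.31, adjusted p = 2.64e-05). Both calls were kept under every alternative run.

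CTSH, which codes for the aminopeptidase cathepsin H (chromosome 7, 48084882 to 48106072, minus strand), moved the other way. It had 430.2 and 434 CPM in outer zone P3 cells against 143, 254 and 179 CPM in outer zone tissue, and 279, 363 and 297 CPM in inner zone P3 cells against 79.3, 169 and 79.2 CPM in inner zone tissue, so that cells and tissue did not overlap in either zone. Cartilage had 245, 192 and 180.3 CPM. CTSH rose 2.87-fold in inner zone P3 cells (1.52 ± 0.29, adjusted p = 0.000776). In the outer zone its log2 fold change was 1.17 ± 0.31 with an adjusted p of 0.0103, just outside the threshold, and it was called without outer zone tissue 3 (1.42, adjusted p = 0.00607). In inner zone tissue over cartilage the value was -0.92 ± 0.29 (adjusted p = 0.0287), which became a call without inner zone tissue 3 (-1.38, adjusted p = 0.00185).

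CTSS codes for cathepsin S, a cysteine protease best known from antigen presenting cells (chromosome 4, 98415273 to 98442952, plus strand). Its levels were low, with 20.1 and 9.67 CPM in outer zone P3 cells, 14.9, 7.47 and 6.91 CPM in inner zone P3 cells, 9.92, 18.9 and 39.7 CPM in outer zone tissue, 4.98, 5.61 and 5.52 CPM in inner zone tissue and 4.42, 7.26 and 5.71 CPM in cartilage. Outer zone tissue lay above the other tissues with a wide spread. CTSS rose 3.95-fold in outer zone tissue over cartilage (1.98 ± 0.47, adjusted p = 0.00499), a call that was lost without outer zone tissue 6 (1.32, adjusted p = 0.0265) or without cartilage 1, 2 or 3 (1.82, 2.18 and 1.99, adjusted p 0.0126 to 0.022). The 15 macrophage markers summed to 112, 182 and 183 CPM in the same 3 outer zone tissue libraries, and their part in the level of CTSS was not tested.

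Of the remaining proteases none was called in any comparison with all libraries, and each of CTSA, CTSB, CTSC, CTSZ and TPP1 differed by less than 1 on the log2 scale between all pairs of groups tested. CTSB, a cysteine protease, was the most abundant of them, with group means of 964 ± 207 CPM in outer zone P3 cells (n = 2), 694 ± 10.8 CPM in inner zone P3 cells, 849.7 ± 142 CPM in outer zone tissue, 537 ± 59.5 CPM in tissue of the inner zone and 892 ± 89.3 CPM in cartilage (SD, n = 3 each). In inner zone tissue over cartilage CTSB (-0.73 ± 0.17, adjusted p = 0.00633) and TPP1, a tripeptidyl peptidase (-0.87 ± 0.17, adjusted p = 0.00209), passed the adjusted p but not the fold threshold. Outer zone tissue gave -0.88 ± 0.17 for TPP1 (adjusted p = 0.00136), and without cartilage 2 the gene was called for either zone (-1.04 outer, -1.03 inner). CTSZ, cathepsin Z, passed it in inner zone P3 cells over tissue (-0.72 ± 0.19, adjusted p = 0.00601).

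**Figure D3:**
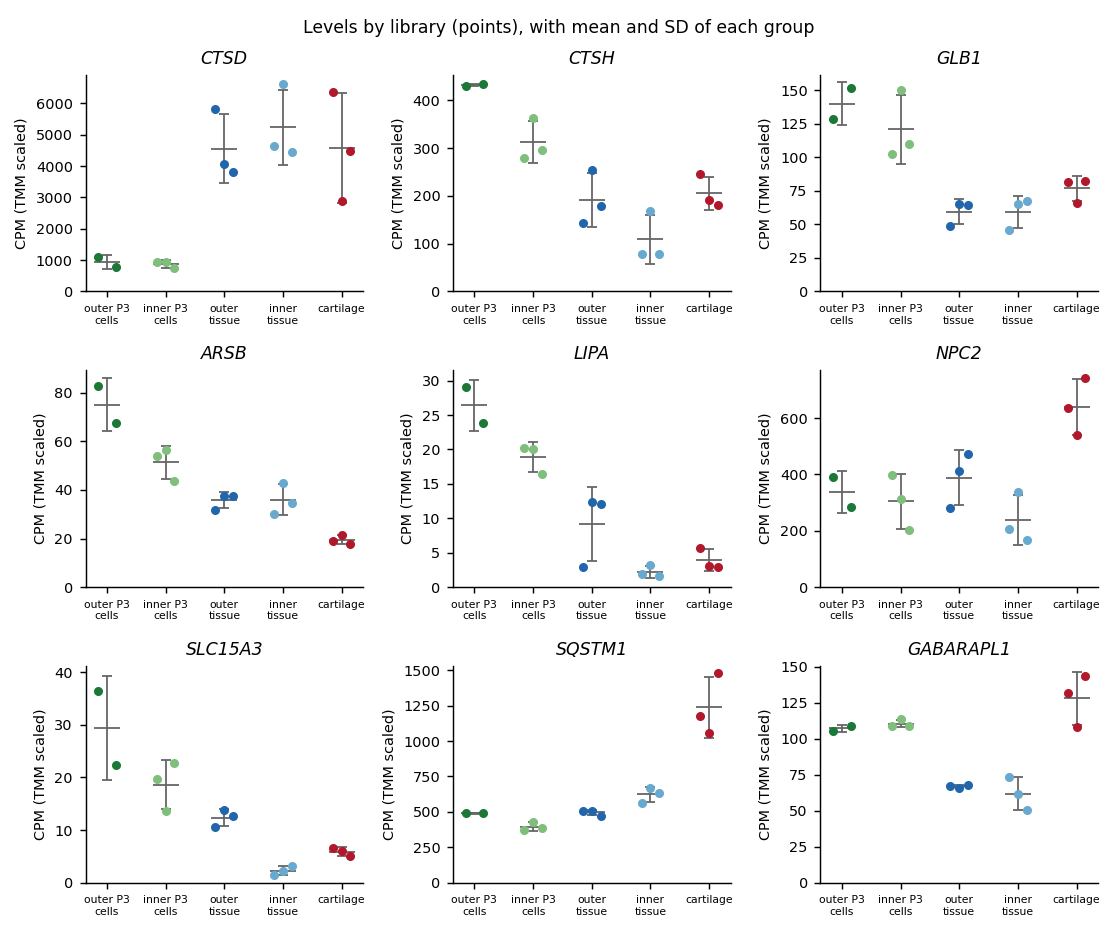
Level in CPM (y axis, from 0) of 9 genes in each library (points), with the mean and SD of each group, for outer zone P3 cells, inner zone P3 cells, outer zone tissue, inner zone tissue and cartilage. CTSD in cells lies between 734 and 1102 CPM, under all tissue libraries, while LIPA, CTSH, GLB1 and ARSB lie highest in cells and SQSTM1 and NPC2 in cartilage.

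Among the glycosidases and sulfatases 2 genes rose in cells. GLB1 codes for lysosomal beta-galactosidase (chromosome 13, 18878407 to 18978999, minus strand), and had 129 and 151 CPM in outer zone P3 cells against 48.9, 65.1 and 64.5 CPM in outer zone tissue, and 102, 150.1 and 109.9 CPM in inner zone P3 cells against 45.8, 65 and 67.2 CPM in inner zone tissue. No cell library overlapped with the tissue of its zone. Cartilage had 81.9, 66.2 and 82.4 CPM, below all cell libraries, and overlapped with inner zone tissue. The rise was 2.35-fold in the outer zone (1.24 ± 0.21, adjusted p = 0.000586) and 2.04-fold in the inner zone (1.03 ± 0.19, adjusted p = 0.000625). The inner zone call was close to the fold threshold and was lost without inner zone tissue 2 (0.85) or inner zone P3 cells 148 (0.84).

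ARSB codes for arylsulfatase B, which removes sulfate from dermatan and chondroitin sulfate (chromosome 2, 87614938 to 87779553, minus strand). Its level followed a clear order, with 82.8 and 67.4 CPM in outer zone P3 cells, 54, 56.4 and 43.8 CPM in inner zone P3 cells, 31.9, 37.5 and 37.7 CPM in outer zone tissue, 30.1, 42.8 and 34.8 CPM in inner zone tissue and 19.1, 21.5 and 17.9 CPM in cartilage. Only the 2 tissue zones overlapped. ARSB rose 2.1-fold in outer zone P3 cells over tissue (1.07 ± 0.17, adjusted p = 0.000344), and this call was lost without outer zone tissue 2 (0.998) or outer zone P3 cells 147 (0.92). In inner zone P3 cells over tissue the log2 fold change was 0.52 ± 0.15 (adjusted p = 0.0121). Against cartilage ARSB was 0.87 ± 0.15 higher in outer zone tissue (adjusted p = 0.0009) and 0.88 ± 0.15 higher in inner zone tissue (adjusted p = 0.00134) on the log2 scale, under the fold threshold, and without inner zone tissue 2 the inner zone value came to 1.01 and was called.

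GAA, the acid alpha-glucosidase that degrades glycogen (chromosome 12, 2315807 to 2339867, minus strand), was highest in cartilage. It had 79.4, 92.2 and 59.4 CPM in outer zone tissue and 53.9, 85.1 and 63.7 CPM in inner zone tissue against 137, 129 and 173 CPM in cartilage, and 71.5 to 88.2 CPM over the 5 cell libraries. Both meniscus zones lay below cartilage without overlap. GAA fell 2.17-fold in inner zone tissue (-1.12 ± 0.19, adjusted p = 0.0013), which was lost without inner zone tissue 2 or cartilage 3 (-0.96 each). In outer zone tissue it was -0.93 ± 0.19 (adjusted p = 0.0025), which became a call without outer zone tissue 3 (-1.08) or cartilage 2 (-1.01).

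The other 5 enzymes of glycan breakdown were called in no comparison. GUSB, beta-glucuronidase, had 105 to 128 CPM in outer zone tissue and 101 to 122 CPM in inner zone tissue against 172 to 205 CPM in cartilage, which passed the adjusted p in both zones (-0.66 ± 0.13, adjusted p = 0.00182 outer, and -0.76 ± 0.13, adjusted p = 0.00128 inner). NAGLU, which removes N-acetylglucosamine from heparan sulfate, was nearly the same in all 5 cell libraries, at 45.9 to 46.3 CPM, and stood at 58.6 to 68 CPM in outer zone tissue and 67 to 79.3 CPM in inner zone tissue, lower in cells of the inner zone by the adjusted p alone (-0.63 ± 0.11, adjusted p = 0.000307). ARSA, arylsulfatase A, was also lower in inner zone P3 cells (-0.69 ± 0.16, adjusted p = 0.00307), while FUCA1, alpha-fucosidase, was higher there (0.54 ± 0.13, adjusted p = 0.00378). IDUA, alpha-iduronidase, had group means of 105 ± 22.4 CPM in outer zone P3 cells (n = 2), 93.8 ± 5.19 CPM in inner zone P3 cells, 137 ± 28.3 CPM in outer zone tissue, 136 ± 13 CPM in tissue of the inner zone and 159 ± 21.7 CPM in cartilage (SD, n = 3 each), and passed the adjusted p nowhere.

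Among the lipid handling genes LIPA changed most. It codes for lysosomal acid lipase, which releases cholesterol and fatty acids from lipoprotein esters (chromosome 14, 101131372 to 101254739, minus strand). LIPA had 29 and 23.8 CPM in outer zone P3 cells, 20.2, 20.1 and 16.4 CPM in inner zone P3 cells, 2.88, 12.4 and 12.1 CPM in outer zone tissue, 1.85, 3.22 and 1.58 CPM in inner zone tissue and 5.72, 3.07 and 2.97 CPM in cartilage. Every cell library lay above every tissue library, and outer zone tissue 2 lay with inner zone tissue and cartilage, below the other outer zone libraries. LIPA rose 8.54-fold in inner zone P3 cells over inner zone tissue (3.09 ± 0.48, adjusted p = 0.00017), a call kept under every alternative run. In the outer zone the log2 fold change was 1.53 ± 0.48 with an adjusted p of 0.023 and was not called.

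NPC2 binds cholesterol inside lysosomes and hands it on for export (chromosome 7, 97730532 to 97740087, minus strand). It had 281, 411 and 473 CPM in outer zone tissue and 205, 337 and 169 CPM in inner zone tissue against 636, 541 and 741 CPM in cartilage, and 203 to 398 CPM over the 5 cell libraries. Both zones lay below cartilage. NPC2 fell 2.7-fold in inner zone tissue (-1.43 ± 0.30, adjusted p = 0.00392), a call lost without inner zone tissue 2 (-1.32, adjusted p = 0.0205), inner zone tissue 5 (-1.24, adjusted p = 0.018) or cartilage 3 (-1.30, adjusted p = 0.0194). In outer zone tissue the value was -0.72 ± 0.30 (adjusted p = 0.0736). PSAP, the precursor of the saposins that activate sphingolipid hydrolases, was 609 to 832 CPM in inner zone tissue against 1018 to 1516 CPM in cartilage (-0.87 ± 0.19, adjusted p = 0.00521), under the fold threshold, and was called without inner zone tissue 3 or cartilage 2 (-1.02 and -1.003).

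The membrane proteins divided into SLC15A3 and the rest. SLC15A3, a proton-coupled transporter of histidine and small peptides in endosomes and lysosomes (chromosome 2, 10799927 to 10814363, plus strand), was the member called in all 5 comparisons that called any. It had 36.5 and 22.4 CPM in outer zone P3 cells, 19.6, 13.5 and 22.7 CPM in inner zone P3 cells, 10.6, 13.9 and 12.6 CPM in outer zone tissue, 1.5, 2.14 and 3.16 CPM in inner zone tissue and 6.67, 5.96 and 5 CPM in cartilage. Outer zone tissue, cartilage and inner zone tissue stood in that order without overlap, and the lowest inner zone P3 library fell within the range of outer zone tissue.

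SLC15A3 rose 8.2-fold in inner zone P3 cells over inner zone tissue (3.04 ± 0.30, adjusted p = 5.78e-06), a call kept under every alternative run, and 2.38-fold in outer zone P3 cells over outer zone tissue (1.25 ± 0.30, adjusted p = 0.00516). The outer zone call was lost without outer zone tissue 2 (1.15), outer zone tissue 6 (1.26) or outer zone P3 cells 147 (0.86). Against cartilage SLC15A3 rose 2.1-fold in outer zone tissue (1.07 ± 0.28, adjusted p = 0.00852) and fell 2.59-fold in inner zone tissue (-1.37 ± 0.29, adjusted p = 0.00389). The first of these was lost without outer zone tissue 3 or 6 or any single cartilage library (0.98 to 1.18, adjusted p 0.0151 to 0.0386), and the second without inner zone tissue 2 or 3 or cartilage 1 or 2 (-1.36 to -1.13, adjusted p 0.0127 to 0.0173). In the P3 libraries, where its level was highest, the 15 macrophage markers summed to 17.7 to 20.6 CPM, and 3 of them in outer zone and 5 in inner zone P3 cells had 0 reads. Their part in its level was not tested.

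The remaining membrane proteins were lower in cells. LAMP1 and LAMP2 are the main glycoproteins of the lysosomal wall, MCOLN1 is a calcium channel of that membrane and CD63 is a tetraspanin of late endosomes. LAMP1 had 489 and 391 CPM in outer zone P3 cells against 686, 653 and 573 CPM in outer zone tissue, and 457, 447 and 386 CPM in inner zone P3 cells against 578, 766 and 639 CPM in inner zone tissue, with 873, 685 and 847 CPM in cartilage. MCOLN1 had 16.1 and 17.8 CPM in outer zone P3 cells against 26.9, 26.1 and 24.5 CPM in outer zone tissue, and 17.4, 18.2 and 18.3 CPM in inner zone P3 cells against 31.2, 28.3 and 24.3 CPM in inner zone tissue, with 28.5, 19.4 and 31.5 CPM in cartilage. For both genes the cell libraries lay below all tissue libraries of their zone.

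All 4 of these genes passed the adjusted p in the inner zone, with log2 fold changes of -0.62 ± 0.16 for LAMP1 (adjusted p = 0.00579), -0.85 ± 0.17 for LAMP2 (adjusted p = 0.0013), -0.64 ± 0.16 for MCOLN1 (adjusted p = 0.00481) and -0.78 ± 0.16 for CD63 (adjusted p = 0.0014), all under the fold threshold. In the outer zone the values were -0.53, -0.62, -0.61 and -0.65, with adjusted p of 0.0324, 0.0255, 0.0177 and 0.0145. LAMP2 was in addition lower in both tissue zones than in cartilage, at 464 to 529 CPM in outer zone tissue (-0.71 ± 0.17, adjusted p = 0.00632) and 419 to 647 CPM in inner zone tissue (-0.72 ± 0.17, adjusted p = 0.00812) against 752 to 942 CPM in cartilage.

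The proton pump subunits did not move together. ATP6V1H, of the cytosolic part, had 72.9 and 70.8 CPM in outer zone P3 cells against 39.5 to 46 CPM in outer zone tissue (0.77 ± 0.15, adjusted p = 0.0016), and 57.1 to 70.1 CPM in inner zone P3 cells against 38.7 to 48.4 CPM in inner zone tissue (0.50 ± 0.14, adjusted p = 0.00849). ATP6V1A, the subunit that splits ATP, had 54.1, 52.2 and 61.2 CPM in inner zone P3 cells against 84.8 to 88.7 CPM in inner zone tissue (-0.64 ± 0.09, adjusted p = 0.000116). In the outer zone its ranges of 68 to 75.5 CPM in P3 cells and 72.4 to 75.6 CPM in tissue overlapped. ATP6V0D1, of the membrane part, had 95.2 to 101 CPM in inner zone P3 cells against 127 to 160.0 CPM in inner zone tissue (-0.53 ± 0.14, adjusted p = 0.00628). No subunit was called in any comparison.

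TFEB itself (chromosome 7, 36870240 to 36920887, minus strand) was among the genes with the lowest level. It had 6.6 and 5.24 CPM in outer zone P3 cells, 6.87, 7.22 and 6.32 CPM in inner zone P3 cells, 14.3, 9.95 and 10.2 CPM in outer zone tissue, 15, 7.88 and 12.7 CPM in inner zone tissue and 20, 16.4 and 23.2 CPM in cartilage. Cells lay below tissue and both meniscus zones below cartilage without overlap. The log2 fold changes were -0.95 ± 0.27 in outer zone P3 cells over tissue (adjusted p = 0.0137), -0.80 ± 0.24 in inner zone P3 cells over tissue (adjusted p = 0.0121), -0.79 ± 0.23 in outer zone tissue over cartilage (adjusted p = 0.0167) and -0.74 ± 0.23 in inner zone tissue over cartilage (adjusted p = 0.0292), and none passed the threshold. Without inner zone tissue 3 the second of these came to -1.02 and was called (adjusted p = 0.00155).

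Among the autophagy genes SQSTM1 and GABARAPL1 differed between tissues. SQSTM1 codes for the cargo receptor p62 (chromosome 2, 78752768 to 78763998, minus strand). It had 493 and 488 CPM in outer zone P3 cells, 373, 429.7 and 386 CPM in inner zone P3 cells, 506, 508 and 474 CPM in outer zone tissue, 563, 671 and 636 CPM in inner zone tissue and 1175, 1061 and 1479 CPM in cartilage. Cartilage lay above all other groups. SQSTM1 fell 2.5-fold in outer zone tissue over cartilage (-1.32 ± 0.15, adjusted p = 5.29e-05). In inner zone tissue the value was -0.99 ± 0.15 (adjusted p = 0.000454), just under the fold threshold, and it was called when inner zone tissue 3 or 5 or cartilage 1 or 2 was left out (-1.05, -1.004, -1.03 and -1.09).

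GABARAPL1, a ubiquitin-like protein of the autophagosome membrane (chromosome 5, 61758127 to 61767427, minus strand), was lowest in meniscus tissue. It had 105 and 109 CPM in outer zone P3 cells, 109, 113 and 109 CPM in inner zone P3 cells, 67.2, 66.1 and 67.8 CPM in outer zone tissue, 73.3, 61.4 and 50.6 CPM in inner zone tissue and 132, 108 and 144 CPM in cartilage. Neither zone overlapped with its cells or with cartilage. GABARAPL1 fell 2.07-fold in inner zone tissue over cartilage (-1.05 ± 0.14, adjusted p = 0.000233), a call lost without inner zone tissue 5 (-0.93) or cartilage 3 (-0.95). It was -0.93 ± 0.14 in outer zone tissue (adjusted p = 0.0003), a value of -1.04 and a call without cartilage 2. Cells over tissue gave 0.68 ± 0.15 in the outer zone (adjusted p = 0.00364) and 0.84 ± 0.14 in the inner zone (adjusted p = 0.000255), under the fold threshold.

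MAP1LC3B codes for LC3B, the best known marker protein of autophagosomes. It had 82.8 and 76.3 CPM in outer zone P3 cells, 66.4, 70.5 and 71.1 CPM in inner zone P3 cells, 78.6, 82 and 81.4 CPM in outer zone tissue, 108, 92.9 and 92.1 CPM in inner zone tissue and 104, 99.8 and 89.3 CPM in cartilage. In the inner zone cells lay below tissue (-0.49 ± 0.10, adjusted p = 0.00129), and in the outer zone they overlapped with it. BECN1, a subunit of the lipid kinase that starts the autophagosome, was also lower in inner zone P3 cells (73.5 to 80.3 CPM against 93.7 to 101 CPM in inner zone tissue, -0.31 ± 0.09, adjusted p = 0.00894). ATG5, part of the complex that lipidates LC3, had 21.3 to 33 CPM over all libraries, and its ranges overlapped in each comparison.

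**Figure D4:**
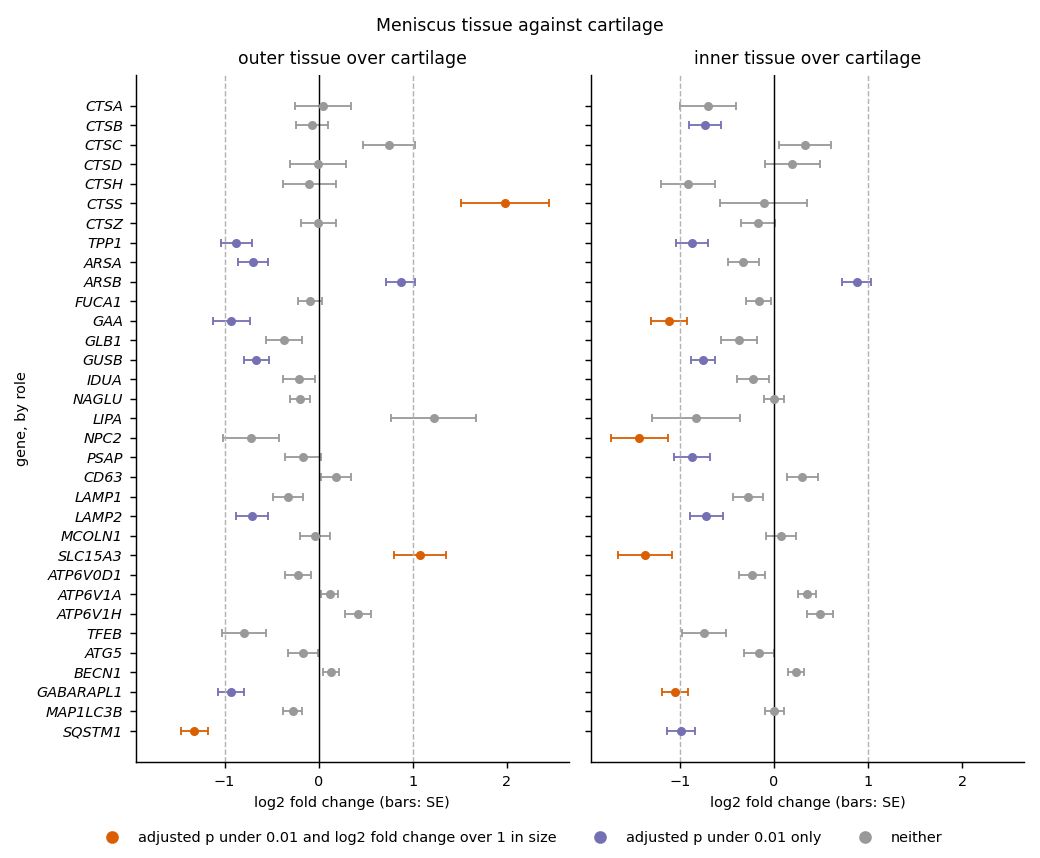
Log2 fold change with its SE (x axis) of each of the 33 genes (rows, by role) in outer zone tissue over cartilage (left) and inner zone tissue over cartilage (right), with dashed lines at 1 and -1. SLC15A3 lies at 1.07 on the left and at -1.37 on the right, and SQSTM1, GABARAPL1, GAA and GUSB lie below 0 on both sides.

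Between the zones of the tissue SLC15A3 was the member that differed. It rose 5.45-fold in outer over inner zone tissue (2.45 ± 0.29, adjusted p = 0.00868), with 10.6 to 13.9 CPM against 1.5 to 3.16 CPM. The adjusted p was over 0.01 without inner zone tissue 2, 3 or 5 (2.21, 2.41 and 2.77, adjusted p 0.0125 to 0.0608) and without outer zone tissue 3 or 6 (2.35 and 2.43, adjusted p 0.0308 to 0.0311), and it was 0.000825 without outer zone tissue 2. With the replicate number of the labels as a block the call was kept, and 89 of all genes were called in place of 5. LIPA and CTSS had values of nearly the same size, at 2.05 ± 0.47 (adjusted p = 0.062) and 2.09 ± 0.47 (adjusted p = 0.06). Without outer zone tissue 2, the library with few endothelial reads, both were called (LIPA 2.47, adjusted p = 0.00101, and CTSS 2.45, adjusted p = 0.00454), and LIPA was then also called over cartilage (1.64, adjusted p = 0.00149). Outer zone tissue 2 had the lowest outer zone level of both genes, so leaving it out widens the difference. In outer over inner zone tissue 364 of all genes were then called in place of 5.

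**Figure D5:**
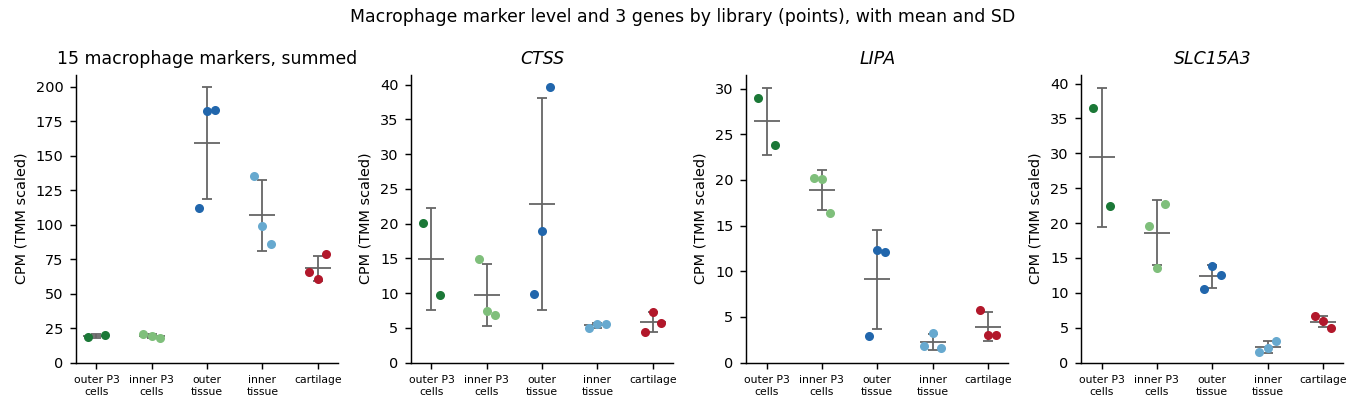
Summed level of 15 macrophage markers and levels of CTSS, LIPA and SLC15A3 in CPM (y axes, from 0) in each library (points), with mean and SD of each group. The marker sum is 112 to 183 CPM in outer zone tissue and 17.7 to 20.6 CPM in P3 cells, whereas LIPA and SLC15A3 have their highest levels in P3 cells.

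The plot of macrophage markers sets these 3 genes beside the marker sum. The sum was 112, 182 and 183 CPM in outer zone tissue 2, 3 and 6, and that of outer zone tissue 2 lay within the 85.9 to 135 CPM of inner zone tissue. Of the 15 markers 12 were lowest of the 3 libraries in outer zone tissue 2, among them C1QC at 0.243, 9.89 and 15.8 CPM, while MARCO lay between. CD14 at 56, 53.8 and 52.8 CPM and LYZ at 47.6, 13.4 and 6.87 CPM were highest in outer zone tissue 2 and made up most of its sum. CTSS at 9.92, 18.9 and 39.7 CPM and LIPA at 2.88, 12.4 and 12.1 CPM were likewise lowest in outer zone tissue 2, while SLC15A3 at 10.6, 13.9 and 12.6 CPM differed little among the 3 libraries. Other marker sums were also lowest in outer zone tissue 2. In the same 3 libraries 5 osteoclast markers summed to 9.68, 52 and 85.1 CPM and 10 endothelial markers to 18.5, 622 and 238 CPM. Fibrous tissue markers summed to 4202, 5483 and 8999 CPM. The sums of chondrocyte markers (21376, 14261 and 8281 CPM) and of mural and smooth muscle markers (908, 744 and 380 CPM) were highest there. Whether any of these markers have a part in the zone difference of CTSS and LIPA was not tested.

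Outer zone P3 cells over inner zone P3 cells gave 0 called genes, both in the set and in the whole table (0%). At an unadjusted p under 0.05 there were 6 of the 33 genes and 505 of all genes, and the Wald test of DESeq2 called 0 of the 33 and 10 of all. The median log2 difference of the 33 genes was 0.20 against 0.00 over all genes, and 16 of 33 lay above all inner zone P3 libraries against 1 below, where 11.9% and 11% of all genes did so with groups of 2 and 3 libraries. These 16 included CTSA, CTSB, CTSC, CTSH and TPP1 of the proteases and all 3 pump subunits. The shares again compare genes of unlike depth, and the part of depth was not tested. They are not read as a difference between the set and the whole table. The change with passaging, compared between the zones as an interaction, gave 0 called genes in the set and in the table (0%), with 7 of the 33 and 1173 of all genes at an unadjusted p under 0.05, and 0 of the 33 and 17 of all genes by DESeq2. The largest interaction values were -1.79 ± 0.42 for SLC15A3 (adjusted p = 0.541), -1.57 ± 0.67 for LIPA (adjusted p = 0.662) and -1.48 ± 0.68 for CTSS (adjusted p = 0.668). A difference in change between the zones was therefore not shown for any of the 33 genes.

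The other genes of these pathways were read from 8 further lists, and the share of each list that was called is set against that of all genes. Of 32 other lysosomal hydrolases and activators 1 rose and 3 fell in outer zone P3 cells over tissue (12.5%, against 16.7% of all genes) and 1 rose and 7 fell in inner zone P3 cells over tissue (25%, against 25.7%), with medians of -0.04 and -0.34. LGMN, the asparaginyl endopeptidase legumain that processes cathepsins, rose in inner zone P3 cells, with 1337, 1274 and 846 CPM against 312, 615 and 225 CPM in inner zone tissue (1.59 ± 0.34, adjusted p = 0.0019), a call lost without inner zone tissue 2 (1.43, adjusted p = 0.0125). AGA, an enzyme of glycoprotein breakdown, fell in cells of both zones (-1.34 ± 0.21, adjusted p = 0.000355 outer, and -1.38 ± 0.18, adjusted p = 5.03e-05 inner). In tissue over cartilage 2 of these 32 rose and 4 fell for the outer zone (18.8%, against 15.1%) and 1 rose and 1 fell for the inner zone (6.25%, against 9.05%). SIAE, a sialic acid esterase, fell in both (-1.50 ± 0.17, adjusted p = 6.79e-05 outer, and -1.12 ± 0.17, adjusted p = 0.000595 inner), and the inner zone call was lost without inner zone tissue 3 (-0.94).

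Of 21 other lysosomal membrane proteins 2 rose and 4 fell in outer zone P3 cells over tissue (28.6%, against 16.7% of all genes), and 4 rose and 3 fell in inner zone P3 cells over tissue (33.3%, against 25.7%). TPCN2, a cation channel of the endolysosomal membrane, had 66.8 and 58.2 CPM in outer zone P3 cells against 7.94, 13 and 14.1 CPM in outer zone tissue (2.42 ± 0.22, adjusted p = 9.31e-06), and 53.3, 61.8 and 58.9 CPM in inner zone P3 cells against 7.54, 10.8 and 7.62 CPM in inner zone tissue (2.75 ± 0.21, adjusted p = 1.1e-06). LAPTM4B, a membrane protein of late endosomes, fell in inner zone P3 cells (66.1 to 90.6 CPM against 277 to 308 CPM in inner zone tissue, -1.92 ± 0.13, adjusted p = 7.27e-07). LAPTM5, a related protein of blood-derived cells, had 0.0808 and 0.195 CPM in outer zone P3 cells and 0 to 0.0923 CPM in inner zone P3 cells, against 10.6 to 32.3 CPM in outer zone tissue and 3.22 to 18.4 CPM in inner zone tissue. Both calls of TPCN2 and that of LAPTM4B were kept under every alternative run.

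In tissue over cartilage, 4 of these 21 membrane proteins rose and 0 fell for the outer zone (19%, against 15.1% of all genes), and 1 rose and 1 fell for the inner zone (9.52%, against 9.05%). OSTM1, the partner of the lysosomal chloride exchanger, rose in outer zone tissue (18.3 to 26.8 CPM against 6.14 to 10.3 CPM in cartilage, 1.59 ± 0.28, adjusted p = 0.000918). Of 13 genes of lysosomal enzyme sorting SORT1, the receptor sortilin, fell in outer zone tissue (126 to 192 CPM against 347 to 392 CPM in cartilage, -1.28 ± 0.18, adjusted p = 0.000247) and in inner zone tissue (123 to 145 CPM, -1.42 ± 0.18, adjusted p = 0.000215). GGA2, a clathrin adaptor of that route, fell in both as well (-1.25 ± 0.13, adjusted p = 3.46e-05 outer, and -1.38 ± 0.13, adjusted p = 3.01e-05 inner). The list had 1 gene that rose and 2 that fell in each of these comparisons (23.1%, against 15.1% of all genes for the outer and 9.05% for the inner zone), and 0 called genes in cells over tissue. There 3 of 13 passed the adjusted p in the outer zone (23.1%, against 25%) and 4 of 13 in the inner zone (30.8%, against 38.5%).

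Of 37 other genes of the core autophagy machinery 4 rose and 0 fell in outer zone P3 cells over tissue (10.8%, against 16.7% of all genes), and 3 rose and 2 fell in inner zone P3 cells over tissue (13.5%, against 25.7%). ULK1, the kinase that starts autophagy, rose in inner zone P3 cells (1.20 ± 0.20, adjusted p = 0.000325), where the LC3-related genes GABARAP and GABARAPL2 fell (-1.19 ± 0.13, adjusted p = 1.23e-05, and -1.20 ± 0.19, adjusted p = 0.000183). Of 13 other autophagy receptors 1 rose and 1 fell in the outer zone (15.4%, against 16.7%), and 1 rose and 3 fell in the inner zone (30.8%, against 25.7%). NCOA4, the receptor for ferritin, rose in cells, with 119 and 124 CPM in outer zone P3 cells against 32.6 to 48.5 CPM in outer zone tissue (1.59 ± 0.22, adjusted p = 0.000153) and 111 to 123 CPM in inner zone P3 cells against 31.4 to 47.3 CPM in inner zone tissue (1.48 ± 0.20, adjusted p = 6.36e-05). BNIP3, a hypoxia-induced receptor of mitochondria, fell in inner zone P3 cells (49.4 to 55.7 CPM against 149 to 265 CPM in inner zone tissue, -1.93 ± 0.34, adjusted p = 0.000415) and in outer zone tissue over cartilage (81.4 to 178 CPM against 268 to 591 CPM, -1.80 ± 0.34, adjusted p = 0.00126). Between outer and inner zone tissue, and between the 2 kinds of P3 cells, 0 genes of these lists were called by edgeR.

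The remaining lists held few calls, at most 2 in a comparison. Of 11 other subunits of the proton pump 1 fell in inner zone P3 cells over tissue (9.09%, against 25.7% of all genes), and ATP6V0A2, a subunit of the membrane part, rose in outer zone tissue (25.8 to 31.3 CPM against 7.31 to 12.8 CPM in cartilage, 1.50 ± 0.19, adjusted p = 0.000133) and in inner zone tissue (19.9 to 29.9 CPM, 1.23 ± 0.19, adjusted p = 0.000666). Of 19 relatives of TFEB and genes of nutrient signaling 1 rose in outer zone P3 cells over tissue (5.26%, against 16.7%), 1 fell in inner zone P3 cells over tissue (5.26%, against 25.7%), 1 rose and 1 fell in outer zone tissue over cartilage (2 of 19, against 15.1%), and 1 fell in inner zone tissue over cartilage (5.26%, against 9.05%). Of 6 protease inhibitors SERPINB8, a serpin of the cytosol, rose in outer zone tissue (16.8 to 27.7 CPM against 3.11 to 6.34 CPM in cartilage, 2.40 ± 0.33, adjusted p = 0.000183) and in inner zone tissue (11 to 22.4 CPM, 1.88 ± 0.32, adjusted p = 0.00119). In each of these comparisons 1 of the 6 inhibitors was called (16.7%, against 15.1% of all genes for the outer and 9.05% for the inner zone).

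The 4 listed genes named by the reference table had 1 call among them in all comparisons. MAN2B1, lysosomal alpha-mannosidase, had 93.7, 144 and 117 CPM in inner zone tissue against 303, 177 and 270.3 CPM in cartilage and fell there (-1.08 ± 0.22, adjusted p = 0.00299), a call lost without inner zone tissue 2 (-0.93) or 5 (-1.07) or cartilage 1 (-0.92) or 3 (-1.01). In outer zone tissue MAN2B1 was -0.87 ± 0.22 (adjusted p = 0.0071) and was called without outer zone tissue 3 (-1.001) or cartilage 2 (-1.07). HEXA, a subunit of beta-hexosaminidase whose promoter is printed above, had 213, 204 and 189 CPM in inner zone P3 cells against 347, 441 and 409 CPM in inner zone tissue (-0.98 ± 0.15, adjusted p = 0.000136), just under the fold threshold, and was called without inner zone tissue 2 (-1.09) or inner zone P3 cells 147 (-1.02). CTSL, the cysteine protease cathepsin L, varied widely, with 69.6 and 11 CPM in outer zone P3 cells, 7.5, 4.82 and 23.9 CPM in inner zone P3 cells, 1.01, 14.6 and 3.98 CPM in outer zone tissue, 0.195, 1.89 and 2.12 CPM in inner zone tissue and 5.72, 7.08 and 7.83 CPM in cartilage. It was not called in any comparison, with 3.10 ± 1.02 in inner zone P3 cells over tissue (adjusted p = 0.0214). IDS, iduronate sulfatase, had 122 to 201 CPM over all libraries and was not called.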

How the data were processed

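Messenger RNA libraries (KAPA stranded kit) of 14 samples in 5 groups were used. The authors deposited raw HTSeq read counts per gene, unscaled, from reads that had passed Trim Galore with cutadapt and then STAR on Sscrofa11.1. Tool versions and the HTSeq strand setting are not given in the sources used here, so how reads were assigned where genes overlap is not known. A set of 5 deposited tables of counts scaled by size factors was not used.

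Of 25880 genes 7608 had 0 reads, and the test took the 15707 whose summed reads reached 10. The test was edgeR 4.0.16 (glmQLFit and glmQLFTest, R 4.3.3, limma 3.58.1), with TMM scaling and 1 mean per group in a single model of all 14 libraries. Calls needed an adjusted p (Benjamini-Hochberg, all genes tested) under 0.01 together with a fold change beyond 1 on the log2 scale, in either direction. The SE is the log2 fold change divided by the root of the F statistic. CPM values are counts per 1e6 reads of the TMM-scaled library total. DESeq2 1.42.0, glmTreat, other scaling and filters, fits on fewer libraries, a replicate block and leaving out each library were the alternatives.

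Of repeated symbols the row with most reads was kept. Values are given in every library for genes called in a pairwise comparison and always for CTSD, LAMP1, MCOLN1, TFEB, SQSTM1, MAP1LC3B and GABARAPL1, and up to 3 called genes per comparison were eligible from each further list. All genes and lists were chosen with earlier results of these data known. Gene positions, exon lengths and promoters came from RefSeq on Sscrofa11.1. Depth, in units of 1e6 reads on genes, was 34.9 to 42.8 in outer zone P3 cells, 31.5 to 43.3 in inner zone P3 cells, 24.4 to 37.3 in outer zone tissue, 28.5 to 32.4 in inner zone tissue and 25.7 to 26.8 in cartilage. The promoter stretch of 1 further gene is not reported here.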

Additional observations from a re-analysis of the deposited data

Results flagged for a closer look

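SLC15A3 moved in opposite directions against cartilage in the zones of the meniscus. It was 1.07 ± 0.28 (SE) higher on the log2 scale in outer zone tissue and -1.37 ± 0.29 in inner zone tissue over cartilage, and these differ by 2.45. The difference equals that between outer and inner zone tissue, since both use the same 3 cartilage libraries (edgeR's quasi-likelihood test, adjusted p = 0.00868). Levels were 10.6, 13.9 and 12.6 CPM in outer zone tissue, 1.5, 2.14 and 3.16 CPM in inner zone tissue and 6.67, 5.96 and 5 CPM in cartilage. The calls for outer zone tissue over cartilage, inner zone tissue over cartilage and outer over inner zone tissue were each lost under 7 of 13 alternatives. Leaving out a single library lost them in 5, 4 and 5 cases, while the signs stayed the same.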

How the results depend on the processing

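Of 18 calls (MAN2B1 included) 4 were kept under every alternative, namely CTSD in P3 cells of both zones and LIPA and SLC15A3 in inner zone P3 cells, and 7 were kept when any single library was left out. Leaving out 1 library gave 2 to 5 called genes in outer zone P3 cells over tissue, 4 to 7 in inner zone P3 cells over tissue, 1 to 4 in outer zone tissue over cartilage, 1 to 6 in inner zone tissue over cartilage, 0 to 3 in outer over inner zone tissue, and 0 to 0 for P3 cells between zones and for the interaction. Signs were compared for 70 gene results and for 52 calls of the further lists, and none changed. The interaction values and some other values past neither threshold were not among them. Testing against the 2-fold threshold itself (glmTreat) left 1, 3, 0, 0 and 0 genes in the first 5 of these comparisons, and 945, 1894, 571, 268 and 0 of all genes, against 2617, 4033, 2366, 1421 and 5. With only the libraries compared, outer over inner zone tissue gave 0 genes of the set and 0 of all, outer zone P3 cells over tissue 1516 of all, outer zone tissue over cartilage 1547 and inner zone tissue over cartilage 913. DESeq2 called 3 genes of the set and 353 of all in outer over inner zone tissue. Without outer zone tissue 2 that comparison called 364 of all genes and the interaction 15. With the 4 genes named by the reference, inner zone tissue over cartilage gave 5 calls, a choice made after seeing the data. The cause of these changes was not tested.

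The labels number tissue and cell samples without saying that a number marks an animal, and only 2 numbers are shared by the tissue zones and 2 by the P3 cells. Deviations of same-numbered samples from their group means correlated at 0.336 and 0.164 in tissue, where inner zone tissue 3 with outer zone tissue 6 reached 0.181, and at 0.220 and 0.268 in P3 cells, where the 2 outer zone libraries mirror each other by construction. With the replicate number as a block, 0 genes of the set were called in both comparisons with cartilage (389 of all genes for inner and 600 for outer zone tissue), 1 in outer over inner zone tissue (89 of all), and 0 for P3 cells between zones and the interaction (14 and 20 of all). Some cartilage libraries carry the same numbers too, with correlations of -0.121 to 0.00206. No paired analysis was possible because cells and tissue share no replicate number, for P3 cells over tissue. Groups of 2 or 3 libraries limit all comparisons.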
